A study of Mus musculus with 32 samples.

Results

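Adding Pam3CSK4 to interferon gamma (IFNg) in the wild-type progenitor line was examined by comparing the 4 wild-type libraries given both agents with the 4 wild-type libraries given IFNg alone, 8 of the 32 libraries of the series. The cells were mouse fetal liver progenitors immortalised with ER-HOXB8, an estrogen-dependent HOXB8 fusion that holds myeloid progenitors in a proliferating state while b-estradiol is present. The line used here, hi-77+/+, has an intact Gata2 -77 enhancer, and its partner hi-77-/- lacks it. Cells were grown in medium conditioned with stem cell factor and held for 4 h with IFNg at 1 ng/ml, or with IFNg at 1 ng/ml and Pam3CSK4 at 100 ng/ml, before total RNA was depleted of ribosomal RNA and sequenced. The remaining wild-type groups had vehicle or Pam3CSK4 alone, and the mutant line had the same 4 treatments, with 4 libraries each. Each genotype is represented by 1 line. The labels do not say whether libraries came from separate cultures, so p-values measure the spread between these libraries, which may be technical.

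Pam3CSK4 is a synthetic triacylated lipopeptide that engages the TLR2 and TLR1 receptor pair. The receptors signal through the adaptor MyD88 to release NF-kB from its inhibitors, and NF-kB then induces cytokines, chemokines and the genes of its own feedback inhibitors. IFNg signals through its receptor to induce IRF1, guanylate-binding proteins and the machinery that loads peptides onto MHC class I. In macrophages the pathways meet at shared target genes that carry sites for both kinds of factor.

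The 8 libraries held 44.18 to 68.03 M expected counts and 17430 to 18235 detected genes each. Mitochondrial, microRNA and small structural RNA genes took 13.6 ± 0.61% of counts with both agents and 15.9 ± 1.87% with IFNg alone (SD, n = 4), a difference of -2.27 percentage points (exact two-sided permutation test, p = 0.114). An exact test on 4 against 4 libraries cannot go below p = 0.0286. A further library feature moved with the groups: Gm42418, a gene model that overlaps ribosomal RNA-like sequence, averaged 248 CPM (counts scaled to library size) with IFNg and 2292 CPM with both agents, and Lars2, a mitochondrial leucyl-tRNA synthetase gene, stood at 593, 166, 567 and 62.2 CPM in the 4 libraries with both agents against 47.7, 23.99, 20.8 and 37.8 CPM with IFNg. These 2 genes passed the test but the both-agent libraries were uneven, with Lars2 highest in replicates 1 and 3, and their part in other results was not tested beyond the fits without them and with the Gm42418 level as a covariate. Leaving both out gave 1006 called genes, and the covariate gave 506, against 1012 in the comparison as run. With the covariate 34 of 135 named genes lost their call, and the 135 include genes with no call to lose, such as Gata2 and Mpo. Among the 34 were Unc93b1, Nfkb1, Malt1, Socs1, Irf8, Zbp1, Isg15, Psmb9, Zfp36, Bop1, Kit, Meis1, Ccr2, Lyz2, Cxcr4 and Tifab. The log2 fold changes of several of these moved little: Socs1 went from 0.69 to 0.63, Isg15 from 0.61 to 0.63, Nfkb1 from 0.15 to 0.13 and Cxcr4 from -0.18 to -0.17. Irf8 went from 0.15 to 0.08 and Zfp36 from 0.41 to 0.28.

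Pam3CSK4 on top of IFNg raised more genes than it lowered, and most changes in either direction were small. Of 14869 genes tested, 656 (4.41%) were higher and 356 (2.39%) were lower at an adjusted p under 0.05 (edgeR quasi-likelihood test, Benjamini-Hochberg), 6.81% in all. These shares are the background for the counts of list members called in this comparison below. At least 2-fold changes numbered 80 higher (0.538%) and 8 lower (0.0538%), and 23 rises were at least 3 on the log2 scale. The median called rise was 0.20 and the median called fall was -0.23 on the log2 scale, beside -0.0063 over all genes tested. The levels of the 4 and 4 libraries did not overlap for 603 of the 656 rises and 307 of the 356 falls, while such gaps were present in 14.4% of all genes tested (8.51% higher and 5.84% lower). The count of called genes fell to 577 without IFNg replicate 2 and to 633 without IFNg replicate 3.

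**Figure D1:**
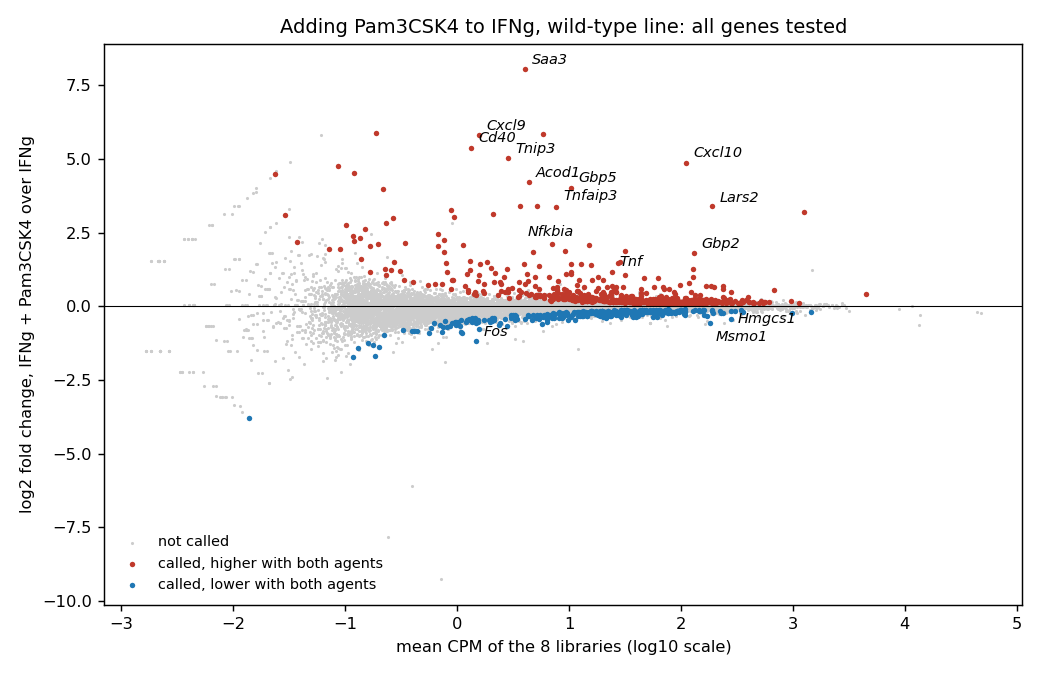
Log2 fold change (both agents over IFNg alone) against the mean CPM of the 8 wild-type libraries on a log10 scale, 1 point per gene, with called genes in colour; 71 tested genes at 0 in all 8 libraries are not drawn. Saa3 lies highest among the called genes, at 8.04, a fitted value that depends on the small prior count because the gene is near 0 with IFNg, and the called falls stay close to the zero line at all but the lowest levels.

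Promoter sequence is shown for Saa3, Tnip3, Cxcl10 and Acod1. These were the 4 named rises of greatest fold among genes at 5 CPM or more with an entry in the promoter table. It is also shown for the NF-kB feedback genes Nfkbia and Tnfaip3. Sites for NF-kB and for interferon-activated factors were searched because Pam3CSK4 and IFNg act through these factors. Whether either kind of factor regulates these genes here was not tested. Each stretch is read 5′ to 3′ on the gene's strand from the 250 bases before the RefSeq start, build GRCm38.p6, without bases that GENCODE places in an exon of the gene. Capitals mark matches to the kB motif (GGGA, any 4 bases, then CC) and, in Saa3 and Cxcl10, to the interferon-stimulated response element (GAAA, any 2 bases, then GAAA), searched on both strands.
Saa3, chr7:46715701-46715926, minus strand: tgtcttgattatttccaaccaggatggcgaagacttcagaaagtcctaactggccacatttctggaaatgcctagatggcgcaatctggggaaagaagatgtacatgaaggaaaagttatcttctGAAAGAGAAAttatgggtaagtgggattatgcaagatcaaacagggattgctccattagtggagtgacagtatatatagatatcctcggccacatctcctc
Tnip3, chr6:65590148-65590397, plus strand: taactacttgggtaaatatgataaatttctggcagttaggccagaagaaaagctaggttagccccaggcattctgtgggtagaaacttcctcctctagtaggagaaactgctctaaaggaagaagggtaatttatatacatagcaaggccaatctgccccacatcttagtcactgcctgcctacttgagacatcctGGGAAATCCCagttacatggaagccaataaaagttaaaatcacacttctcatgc
Cxcl10, chr5:92348890-92349139, minus strand: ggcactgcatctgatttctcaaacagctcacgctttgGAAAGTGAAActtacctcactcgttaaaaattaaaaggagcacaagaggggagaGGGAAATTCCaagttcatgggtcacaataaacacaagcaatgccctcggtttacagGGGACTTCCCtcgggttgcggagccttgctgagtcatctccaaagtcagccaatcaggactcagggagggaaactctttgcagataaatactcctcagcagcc
Acod1, chr14:103046762-103046976, plus strand: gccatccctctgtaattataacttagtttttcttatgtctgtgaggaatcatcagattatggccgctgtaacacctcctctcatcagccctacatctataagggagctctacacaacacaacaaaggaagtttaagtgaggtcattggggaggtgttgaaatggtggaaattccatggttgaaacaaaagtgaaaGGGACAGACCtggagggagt
Nfkbia, chr12:55492648-55492897, minus strand: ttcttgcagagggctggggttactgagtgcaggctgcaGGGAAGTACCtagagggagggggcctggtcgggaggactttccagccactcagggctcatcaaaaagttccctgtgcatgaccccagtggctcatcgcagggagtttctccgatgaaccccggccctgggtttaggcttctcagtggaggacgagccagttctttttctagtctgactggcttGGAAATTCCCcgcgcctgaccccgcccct
Tnfaip3, chr10:19015411-19015547, minus strand: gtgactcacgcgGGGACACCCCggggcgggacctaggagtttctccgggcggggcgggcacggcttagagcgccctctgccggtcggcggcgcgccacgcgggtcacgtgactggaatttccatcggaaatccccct
Cxcl10 held 2 kB matches, at -159 to -150 and -103 to -94 from its start, and 1 response element match at -213 to -204. Saa3 held no kB match in this window and 1 response element match at -125 to -116. Nfkbia held 2 kB matches, at -212 to -203 and -29 to -20, and Tnip3, Acod1 and Tnfaip3 held 1 each. The Tnip3 entry starts 65085 bases from the GENCODE start of the gene.
Of the 80 rises of at least 2-fold, 46 had an entry, and 21 of these (45.7%) held a kB match, beside 22.1% of the 9881 tested genes with an entry. A response element match was in 6 (13%), beside 2.76%. The gamma-activated site TTCNNNGAA was in 7 (15.2%), beside 5.83%, and the AP-1 motif TGANTCA was in 5 (10.9%), beside 4.21%. A kB match was in 43.8% of the 32 rises also called for Pam3CSK4 alone and in 50% of the 14 not called there. These shares describe letters in a fixed window and were not tested.

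The receptor that binds the lipopeptide rose, while its partners did not pass the test. Tlr2 was at 1.23, 1.41, 1.56 and 1.29 CPM with IFNg and 3.39, 2.93, 3.59 and 2.19 CPM with both agents. The lowest library with both agents was above the highest with IFNg (log2 fold change 1.14 ± 0.12, SE; adjusted p = 7.9e-09). Tlr1, the partner in the receptor pair, was near the detection limit at 0.0658 ± 0.0217 and 0.0949 ± 0.0434 CPM, and Tlr6 stood at 1.696 ± 0.08895 and 1.82 ± 0.267 CPM (SD, n = 4, here and below). The co-receptor gene Cd14 was at 4.104 ± 0.192 and 4.32 ± 0.239 CPM. The IFNg receptor genes differed little, with Ifngr1 at 77.6 ± 4.84 and 71.6 ± 2.24 CPM (adjusted p = 0.0874) and Ifngr2 at 23.2 ± 1.01 and 25.1 ± 0.703 CPM (adjusted p = 0.146).

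Of 32 tested genes of Toll-like receptor signalling, 8 rose and none fell, with a median log2 fold change of 0.08. Beside Tlr2 they were the adaptor Myd88 (38.96 ± 1.36 to 49.5 ± 2.59 CPM), the kinases Irak2, Irak3 and Map3k8, the adaptors Tifa and Pik3ap1, and Unc93b1, which carries nucleic acid-sensing receptors to the endosome (16.8 ± 1.605 to 22.1 ± 1.26 CPM).

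Most genes that restrain NF-kB rose with Pam3CSK4. Nfkbia encodes IkB-alpha, which holds NF-kB in the cytoplasm and is itself an NF-kB target. It was at 4.93, 6.22, 5.99 and 5.695 CPM with IFNg and 24.1, 22.4, 26.8 and 24.4 CPM with both agents, a log2 fold change of 2.09 ± 0.07 (SE; adjusted p = 3.3e-23). Tnfaip3, which encodes the ubiquitin-editing enzyme A20, was at 1.27, 1.195, 1.35 and 1.54 CPM with IFNg and 13.8, 13.3, 14.8 and 14.3 CPM with both agents. Every library with both agents was above every IFNg library for both genes, by 3.38 ± 0.08 on the log2 scale for Tnfaip3. Tnip3, whose product binds A20, rose from 0.164 ± 0.0614 to 5.58 ± 0.311 CPM. Nfkbie, another IkB gene, rose from 2.11 ± 0.172 to 7.48 ± 0.343 CPM, and Nfkbiz, an atypical nuclear IkB, from 5.701 ± 0.399 to 15.3 ± 0.507 CPM. In all, 12 of 21 inhibitors and ubiquitin editors were higher and 1 was lower, Otud7b (log2 fold change -0.20 ± 0.04), with a list median of 0.16.

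The NF-kB subunit genes divided by level of change. Relb was at 0.8495, 0.668, 0.927 and 1.08 CPM with IFNg and 10.1, 8.26, 9.54 and 9.54 CPM with both agents, and Nfkb2, the gene of its usual partner p52, was at 14.8, 11.4, 13.8 and 14.2 and 49.3, 47.9, 53.3 and 49.7 CPM. Both groups of libraries were well apart for these genes (log2 fold changes 3.39 ± 0.11 and 1.89 ± 0.06). Nfkb1 rose by 0.15 ± 0.03 on the log2 scale, and by 0.13 with the Gm42418 level as a covariate, where it was not called (adjusted p = 0.0512). Rela and Rel did not pass the test (adjusted p = 0.521 and 0.416).

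**Figure D2:**
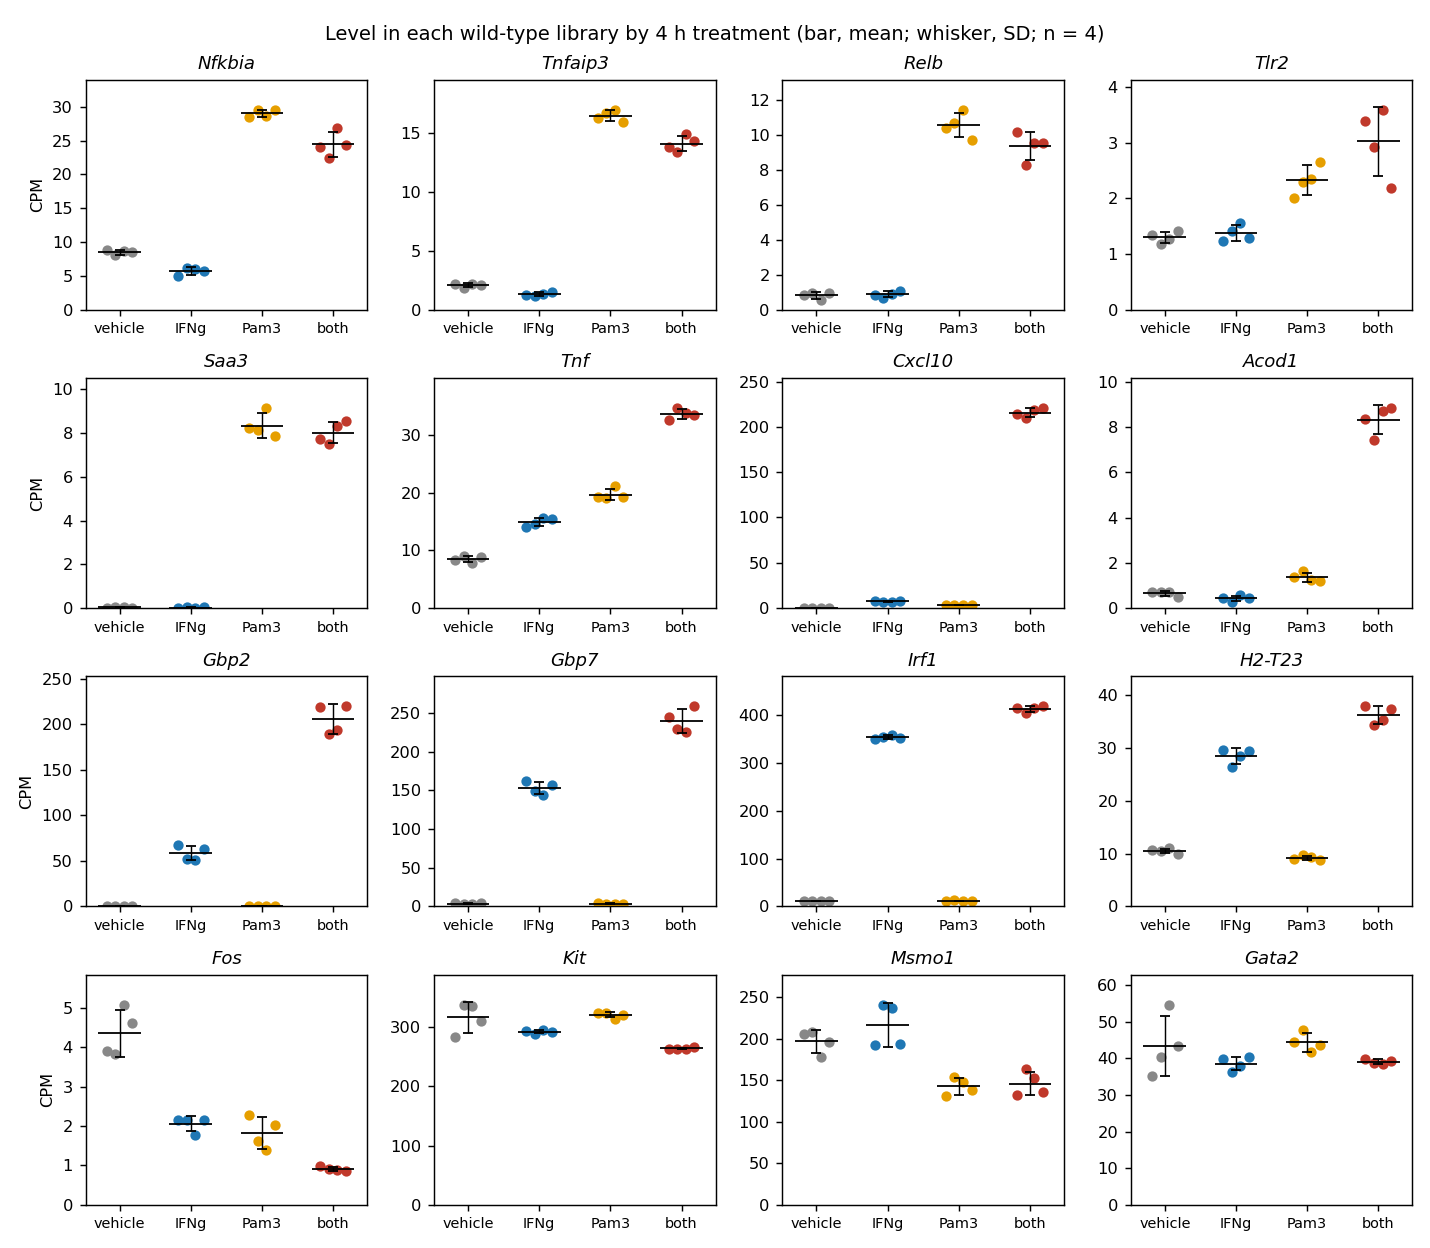
CPM of 16 genes in each wild-type library by 4 h treatment (vehicle, IFNg, Pam3CSK4, both), with the bar at the mean and whiskers of 1 SD (n = 4); each panel has its own axis from 0. Nfkbia, Tnfaip3, Relb and Saa3 are high in both groups with Pam3CSK4, Gbp2, Gbp7, Irf1 and H2-T23 are high in both groups with IFNg and highest with both agents, and Cxcl10 and Acod1 are high in the libraries with both agents.

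Among 35 tested effector genes known as NF-kB targets, 14 were higher and 1 was lower (median 0.29 on the log2 scale). Cd40, the co-stimulatory receptor of antigen-presenting cells, was at 0.08495, 0.0352, 0.0883 and 0.0398 CPM with IFNg and 2.75, 2.12, 2.85 and 2.73 CPM with both agents, so that it was nearly silent without Pam3CSK4. Fas, the death receptor gene, rose from 0.203 ± 0.0436 to 1.67 ± 0.386 CPM, and the adhesion gene Icam1 rose from 41.8 ± 1.63 to 81.9 ± 3.22 CPM. Slc2a6, a lysosomal hexose transporter gene, rose from 3.91 ± 0.493 to 14.5 ± 0.7504 CPM. Smaller rises were measured for the activation antigen Cd69 (128 ± 7.46 to 205 ± 10.7 CPM), the prostaglandin synthase Ptgs2 (35.4 ± 1.62 to 53.1 ± 1.79 CPM), the survival gene Birc3 and the mitochondrial superoxide dismutase Sod2. The 1 lower gene was Malt1 (log2 fold change -0.14 ± 0.04, adjusted p = 0.0425), a call lost when any of 6 of the 8 libraries was left out (each one but IFNg replicates 1 and 4).

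Chemokine genes that recruit T cells through CXCR3 rose steeply. Cxcl10 was at 7.86, 7.205, 6.58 and 7.86 CPM with IFNg and at 215, 210, 218 and 221 CPM with both agents, a log2 fold change of 4.87 ± 0.07 (SE; adjusted p = 1.8e-29). The SD within each group was under 5 CPM, and the lowest library with both agents exceeded the highest IFNg library many times over. Cxcl9 was at 0.08495, 0.0527, 0.0736 and 0.0133 CPM with IFNg and 3.04, 3.205, 2.73 and 3.28 CPM with both agents, and Cxcl11 rose from 0.0553 ± 0.0273 to 0.411 ± 0.1197 CPM. Ccl3, a chemokine for monocytes, rose from 8.59 ± 0.855 to 16.03 ± 0.867 CPM, and the neutrophil chemokine gene Cxcl2 reached 0.234 ± 0.0805 CPM. In all 5 of 15 tested chemokine genes rose and none fell (median 0.37).

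Some cytokine genes rose. Tnf was at 14.1, 14.6, 15.6 and 15.5 CPM with IFNg and 32.6, 34.7, 33.9 and 33.6 CPM with both agents, with no overlap (log2 fold change 1.17 ± 0.05; adjusted p = 2.7e-20). Tnfsf10, the gene of the death ligand TRAIL, rose from 3.29 ± 0.478 to 6.58 ± 0.234 CPM and Ltb, a lymphotoxin gene, from 0.212 ± 0.0598 to 1.14 ± 0.114 CPM. Il1b, Ebi3 and Osm completed the 6 of 20 tested cytokine genes that rose; none fell (median 0.20). Il1b was still low with both agents, at 0.4005 ± 0.137 CPM.

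Several acute-phase and complement genes rose. Saa3, an acute-phase serum amyloid gene of myeloid and stromal cells, was at 0, 0.0527, 0.0147 and 0.0398 CPM with IFNg and 7.72, 7.51, 8.35 and 8.53 CPM with both agents. The haptoglobin gene Hp was at 19.6, 20.6, 20.7 and 20.6 and 42.6, 38.9, 44.4 and 44.9 CPM, and complement factor B, Cfb, at 0.5097, 0.404, 0.309 and 0.504 and 1.89, 1.68, 1.6 and 2.08 CPM. None of these groups overlapped. C3 rose from 16.8 ± 1.25 to 23.3 ± 1.05 CPM and C1s1 completed the 5 of 10 tested genes that rose; none fell (median 0.54).

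Some enzymes of antimicrobial metabolism also rose. Acod1, which makes itaconate from an intermediate of the citric acid cycle, was at 0.467, 0.281, 0.559 and 0.451 CPM with IFNg and 8.38, 7.42, 8.71 and 8.84 CPM with both agents (log2 fold change 4.22 ± 0.13; adjusted p = 1.7e-23). Nox1, a superoxide-producing oxidase gene, was at 0.488, 0.334, 0.486 and 0.385 and 4.13, 4.01, 3.16 and 3.68 CPM. Ncf1, a subunit of the phagocyte oxidase, rose from 117 ± 5.85 to 153 ± 3.87 CPM. Nos2, the inducible nitric oxide synthase gene, was at 0 in the IFNg libraries and at 0.086, 0.0343, 0.0291 and 0.0388 CPM with both agents, so it passed the test at a level of few reads. Of 13 tested genes of this list 5 rose and none fell (median 0.08). Nlrp3, the inflammasome sensor gene, rose from 0.784 ± 0.0944 to 1.65 ± 0.281 CPM, and Casp4, the caspase for cytosolic lipopolysaccharide, from 1.64 ± 0.2498 to 3.96 ± 0.186 CPM.

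Guanylate-binding proteins and immunity-related GTPases, which coat and disrupt pathogen vacuoles, were raised further by Pam3CSK4 in cells that already had IFNg. Of 19 tested members 17 rose and none fell, with a median log2 fold change of 1.16. Gbp2 was at 66.9, 52.3, 51.2 and 63.3 CPM with IFNg and 219, 189, 193 and 220 CPM with both agents, and Gbp5 at 1.64, 0.791, 1.09 and 1.31 and 22.1, 17.4, 18.96 and 19.5 CPM. Both were far above the IFNg range in every library (log2 fold changes 1.81 ± 0.09 and 4.03 ± 0.14). Gbp3 rose from 14.99 ± 1.45 to 42.1 ± 2.81 CPM, Iigp1 from 76.2 ± 9.27 to 182 ± 18.4 CPM and Gbp7 from 153 ± 8.08 to 239 ± 14.9 CPM. Irgm1 and Igtp, which were already abundant, rose by 0.19 ± 0.04 and 0.30 ± 0.05 on the log2 scale. Members of this family share sequence, so reads split between near-identical copies such as Tgtp1 and Tgtp2 leave single values uncertain.

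Pam3CSK4 without IFNg called 1 of these 19 genes, beside 22% of all genes tested in that comparison. Gbp2 averaged 0.126 ± 0.0563 CPM with vehicle and 0.178 ± 0.0917 CPM with Pam3CSK4 alone, and Gbp7 averaged 3.76 ± 0.427 and 3.58 ± 0.2799 CPM. The 1 called gene was Gbp3, at 0.511 ± 0.0839 and 1.06 ± 0.147 CPM. Tested directly, the Pam3CSK4 effect was greater with IFNg for 4 of the 19 and smaller for none. Over all genes tested 0.343% had a greater and 0.249% a smaller effect. Gbp2, Gbp3 and Gbp5 did not pass that test (adjusted p = 0.171, 0.247 and 0.868, edgeR). Gbp5 averaged 0 CPM with vehicle and 0.0137 CPM with Pam3CSK4 alone, so a missing call at such levels says little.

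Antigen presentation through MHC class I rose by small amounts. Of 24 tested members 16 were higher and none lower (median 0.22). H2-T23, a non-classical class I gene, was at 29.6, 26.3, 28.3 and 29.3 CPM with IFNg and 37.8, 34.3, 35.3 and 37.4 CPM with both agents. Tapbp, the tapasin gene that helps load peptides, was at 38.5, 35.9, 33.7 and 41.3 and 54.6, 50.1, 52.2 and 48.9 CPM. B2m, H2-K1, Tap1 and the immunoproteasome gene Psmb9 rose by 0.21 ± 0.04, 0.22 ± 0.03, 0.25 ± 0.04 and 0.26 ± 0.06 on the log2 scale; with the Gm42418 level as a covariate Psmb9 was at 0.24 (adjusted p = 0.0549, edgeR) and not called. Class I genes share sequence, and RSEM divides shared reads among them. Of 12 tested MHC class II genes 1 was called, near the 6.81% of all genes tested. This was Cd74, which was higher, at a low level of 0.499, 0.188, 0.393 and 0.582 CPM with both agents. The peptide exchange gene H2-DMa stood at 13.1 ± 0.6797 CPM with IFNg and 13.2 ± 1.16 CPM with both agents.

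Genes of interferon signalling rose in part. Irf1, an early interferon target gene, was at 350, 354, 358 and 351 CPM with IFNg and 414, 404, 415 and 418 CPM with both agents. The groups did not overlap and differed by 0.22 ± 0.04 on the log2 scale. The feedback inhibitor genes Socs1 and Usp18 rose from 3.79 ± 0.494 to 6.11 ± 0.324 CPM and from 6.797 ± 0.634 to 9.29 ± 0.165 CPM. Irf8, the monocyte and dendritic cell regulator, rose from 121 ± 5.39 to 134 ± 6.22 CPM (adjusted p = 0.0344), a call lost without any of both-agent replicates 1, 3 and 4 or IFNg replicates 2 and 3. In all 9 of 30 rose and none fell (median 0.09), and 5 rose with the Gm42418 level as a covariate.

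Of 37 tested interferon-stimulated antiviral genes 17 rose and 1 fell (median 0.25). Parp14, an ADP-ribosyltransferase gene, rose from 87.4 ± 5.58 to 150 ± 7.99 CPM and the nucleic acid sensor Zbp1 from 5.64 ± 0.408 to 8.66 ± 0.932 CPM. Isg15, a ubiquitin-like modifier gene, rose from 2.46 ± 0.144 to 3.74 ± 0.417 CPM. With the Gm42418 level as a covariate 9 rose and 1 fell, and Isg15 and Zbp1 were not called at log2 fold changes of 0.63 and 0.61, beside 0.61 and 0.62 without it.

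**Figure D3:**
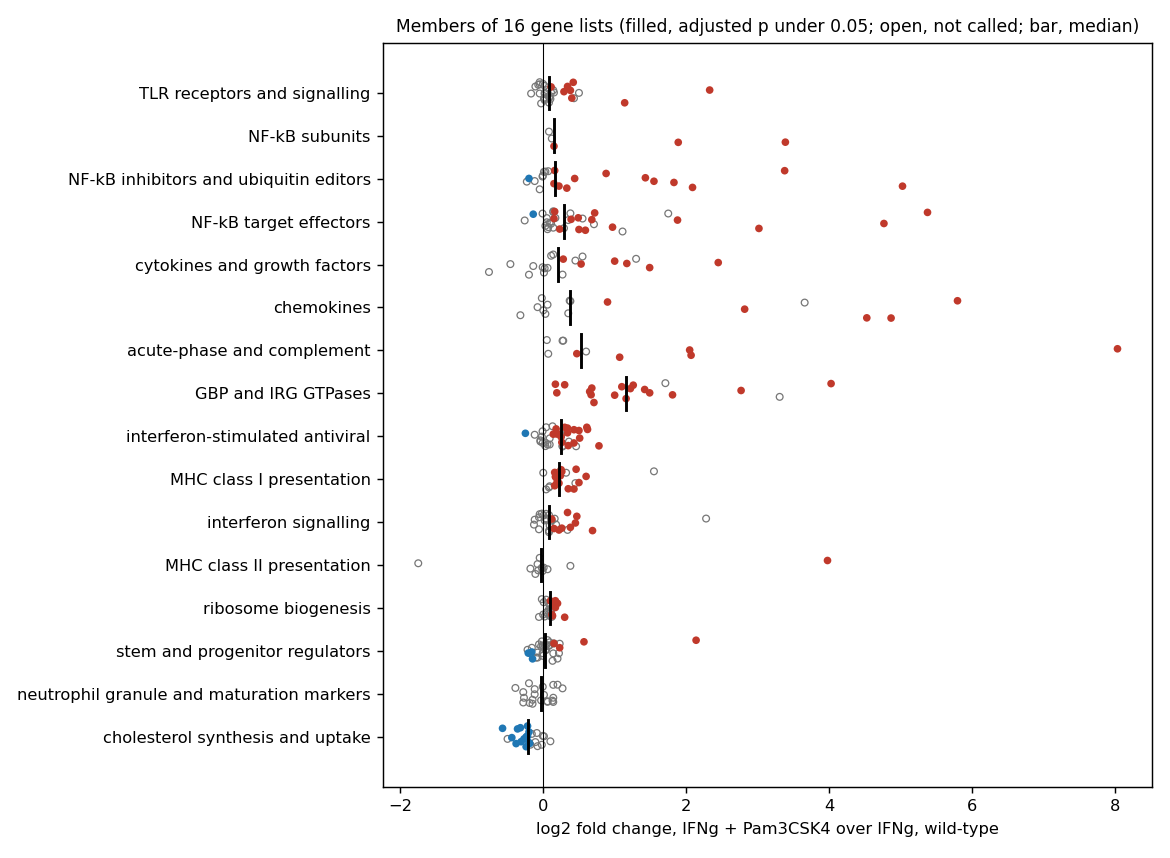
Log2 fold change (both agents over IFNg alone, wild-type) of each tested member of 16 gene lists, with filled points called at an adjusted p under 0.05, red for higher and blue for lower, and a black bar at the list's median. The median of the guanylate-binding protein and immunity-related GTPase list is 1.16, and that of the cholesterol list is -0.22.

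Genes of cholesterol synthesis and uptake fell, with more called falls than any other of the 32 lists. Of 25 tested members 15 were lower and none higher, with a median log2 fold change of -0.22. Hmgcs1, which makes the HMG-CoA that feeds the pathway, was at 283, 354, 336 and 313 CPM with IFNg and 213, 258, 260 and 217 CPM with both agents. Msmo1, a sterol demethylation enzyme gene, was at 193, 241, 237 and 194 and 133, 163, 152 and 136 CPM, and Fdft1, the squalene synthase gene, at 61.04, 74.02, 73.6 and 67.8 and 49.1, 55.3, 57.99 and 50.2 CPM. The groups did not overlap for these 3 genes, and replicates 2 and 3 were the 2 highest of each group for all 3 (log2 fold changes -0.44 ± 0.08, -0.57 ± 0.10 and -0.38 ± 0.06). Srebf2, the gene of the pathway's transcription factor, was at 70.8 ± 3.94 and 69.7 ± 1.89 CPM (adjusted p = 0.913). With the Gm42418 level as a covariate 8 of the 25 were lower and none higher.

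Of the 8 falls of at least 2-fold, Fos alone was above 0.3 CPM in either group. Fos, an AP-1 immediate-early gene, was at 2.14, 2.14, 1.77 and 2.16 CPM with IFNg and 0.9804, 0.908, 0.872 and 0.853 CPM with both agents, a log2 fold change of -1.18 ± 0.16 (adjusted p = 2.3e-06). Of 23 tested immediate-early factors 3 rose and 2 fell (median 0.08), beside 4.41% higher and 2.39% lower over all genes tested. Atf3, a stress-induced factor gene, rose from 3.02 ± 0.191 to 7.81 ± 1.03 CPM and Egr2, an early growth response gene, from 20.5 ± 2.43 to 30.8 ± 1.39 CPM. Rgs2, a brake on G protein signalling, was at 23.02, 25.5, 26.3 and 22.8 and 18.2, 19.5, 18.1 and 18.1 CPM, and Arl4c, a small GTPase gene, fell from 6.89 ± 0.272 to 4.57 ± 0.464 CPM. Bhlhe40, a transcriptional repressor gene, fell from 5.46 ± 0.361 to 3.96 ± 0.359 CPM.

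Some regulators of inflammatory messenger RNA decay rose. Zc3h12a, the gene of the endonuclease Regnase-1, rose from 4.49 ± 0.401 to 8.87 ± 1.12 CPM, and Zfp36, which encodes tristetraprolin, from 6.27 ± 0.471 to 8.31 ± 0.214 CPM. In all 3 of 11 tested genes rose, the other being Arid5a (log2 fold change 0.29 ± 0.05, SE), and none fell. Over all genes tested 4.41% were higher and 2.39% lower. With the Gm42418 level as a covariate Zfp36 (0.28) and Arid5a (0.20) were not called. Among the rises outside the lists, Gpr84, a receptor for medium-chain fatty acids, rose from 2.66 ± 0.317 to 11.6 ± 0.687 CPM and the protease inhibitor gene Serpina3g from 0.639 ± 0.101 to 6.71 ± 0.393 CPM. Of 26 ribosome biogenesis genes 10 rose and none fell (median 0.10), among them Bop1 (log2 fold change 0.20 ± 0.04). This count was 4 without both-agent replicate 4, 5 without IFNg replicate 3, 6 without both-agent replicate 3 or IFNg replicate 2, and 5 with the Gm42418 level as a covariate.

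Gata2, the gene whose enhancer is studied, was at 39.9, 36.2, 38.01 and 40.4 CPM with IFNg and 39.9, 38.7, 38.6 and 39.4 CPM with both agents (adjusted p = 0.937). Of 35 stem and progenitor regulators 4 rose and 3 fell (median 0.03), 7 calls in all, where 6.81% of all genes were called, and 2 rose and 2 fell with the Gm42418 level as a covariate. Lmo2, a haematopoietic adaptor gene, rose from 135 ± 3.68 to 159 ± 3.05 CPM. Cebpa, the granulocyte-monocyte fate gene, fell from 73.1 ± 2.03 to 63.3 ± 1.14 CPM and Meis1, a homeobox partner of HOX proteins, from 27.6 ± 0.302 to 24.8 ± 1.45 CPM. Kit, the stem cell factor receptor gene, was at 293, 289, 295 and 292 CPM with IFNg and 263, 264, 264 and 266 CPM with both agents (log2 fold change -0.15 ± 0.04, adjusted p = 0.0263). Its libraries did not overlap, but the call was lost without any 1 of 7 libraries, the exception being IFNg replicate 4.

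Markers of other cell types were examined beside the 6.81% of all genes called. None of 21 neutrophil granule and maturation markers, 10 mast cell and basophil markers, 11 megakaryocyte markers, 4 hepatocyte markers or 3 T and NK markers was called, and lists this short hold few calls at that share. Of 14 B lymphoid markers Rag1 was higher and Igll1 lower, and of 9 stromal and endothelial markers Pdgfrb was lower (list median -0.22). The Pdgfrb call was lost without any of both-agent replicates 1 and 2 or IFNg replicates 1 and 3. With the Gm42418 level as a covariate Igll1 (-0.50) and Pdgfrb (-0.20) were not called (adjusted p = 0.0605 and 0.216, edgeR). The myeloperoxidase gene Mpo, which marks granule-forming progenitors, stood at 2177 ± 114 and 2269 ± 113 CPM, and the histidine decarboxylase gene Hdc at 311 ± 9.23 and 312 ± 11.9 CPM. The hepatocyte genes Alb and Ttr and the T cell genes Cd3e and Cd4 did not pass the filter on low counts. The summed level of the neutrophil markers ranged from 3162 to 3342 CPM with IFNg and from 3151 to 3403 CPM with both agents. Of 22 erythroid markers 1 was called, Car2, a carbonic anhydrase gene, which rose from 550 ± 17.5 to 803 ± 36.2 CPM, while the list's median was -0.16. Of 17 monocyte, macrophage and dendritic markers 3 rose and 2 fell, the falls being Ccr2 and Lyz2. The count of 5 was 2 with the Gm42418 level as a covariate, 2 without IFNg replicate 3, and 3 without any of IFNg replicate 2 or both-agent replicates 1, 3 and 4. The Ccr2 call was lost without each of these 5 libraries and the Lyz2 call without IFNg replicate 3. In bulk RNA, fewer cells of a type and less RNA per cell cannot be told apart.

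Pam3CSK4 was also given without IFNg, in libraries that share none with the comparison above. Of the 656 rises, 330 were also called higher for Pam3CSK4 over vehicle, 50.3% of the rises with IFNg and 21.4% of the 1540 without it. Of the 356 falls, 124 were also called lower, 34.8% of these and 7.14% of the 1737 falls without IFNg. The comparison with vehicle called 22% of all genes (10.4% higher and 11.7% lower), and its count of 3277 became 176 once the share of structural RNA entered the fit and 2048 without vehicle replicate 4. The vehicle libraries held 24 ± 4.17% structural RNA and those with Pam3CSK4 alone 14.8 ± 1.47% (SD, n = 4).

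The effect of Pam3CSK4 with IFNg was tested against its effect without IFNg, and 88 genes (0.592%) differed, 51 (0.343%) with a higher log2 fold change in the presence of IFNg and 37 (0.249%) with a lower one. Because the difference holds the same 8 libraries, genes called for the addition were more likely to be called here in the same direction. Acod1 was at 0.6598 ± 0.106 CPM with vehicle and 1.36 ± 0.194 CPM with Pam3CSK4 alone, a log2 fold change of 1.02, so that the effect was greater by 3.21 on the log2 scale with IFNg (adjusted p = 2.5e-12). Cxcl10 was at 0.4099 ± 0.0897 and 3.56 ± 0.3601 CPM, and its effect was greater by 1.76 with IFNg (adjusted p = 6.2e-06). Tnfsf10, Ifi47, Zfp36, Gbp7 and Tubb3, a neuronal tubulin gene, differed by 1.01, 1.01, 0.75, 0.71 and 0.67.

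Of the 24 MHC class I genes 10 had a greater effect with IFNg and none a smaller one. Pam3CSK4 alone called 2 of the 24 higher and 4 lower, a share near the 22% of all genes called in that comparison. H2-T23 averaged 10.5 ± 0.416 CPM with vehicle and 9.16 ± 0.3799 CPM with Pam3CSK4 alone, a fall, while it rose in the presence of IFNg, a difference of 0.55 (adjusted p = 2.3e-05). Psmb9 and Psmb8, both immunoproteasome subunits, likewise fell slightly with Pam3CSK4 alone (log2 fold changes -0.21 and -0.11) and differed by 0.47 and 0.29. A smaller effect with IFNg was measured for Gpr12 (-0.54), the cytidine deaminase gene Apobec3 (-0.32), Rassf4 (-0.36) and Fchsd2 (-0.28). Nox1 averaged 0.2295 ± 0.0312 CPM with vehicle and 5.01 ± 0.1095 CPM with Pam3CSK4 alone, and its effect with IFNg was lower, with a difference of -1.30 (adjusted p = 0.0415), a call lost without most single libraries. With the Gm42418 level as a covariate the differences of Tnfsf10 (0.84), Zfp36 (0.60), Apobec3 (-0.26), Rassf4 (-0.29), Fchsd2 (-0.25) and Nox1 (-1.22) were not called. With a structural RNA covariate those of Apobec3 (-0.21), Rassf4 (-0.36) and Nox1 (-1.23) were not called. Tnfsf10 was also not called without vehicle replicate 1 (0.78), and Rassf4 without both-agent replicate 3, IFNg replicates 2 and 4, Pam3CSK4 replicate 1 or vehicle replicate 1 (-0.35 to -0.32).

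Nfkbia, Tnfaip3, Relb, Saa3 and Tnf did not pass the test of this difference (adjusted p = 0.0841, 0.0928, 0.368, 0.956 and 0.792). The log2 fold changes of Nfkbia, Tnfaip3, Relb and Tnf without IFNg were 1.78, 2.98, 3.68 and 1.21, beside 2.09, 3.38, 3.39 and 1.17 with it. Saa3 averaged 0.0296 ± 0.0242 CPM with vehicle and 8.34 ± 0.556 CPM with Pam3CSK4 alone. The number of genes that differed rested on single libraries: it was 1156 without vehicle replicate 3, 461 without vehicle replicate 2, and 44 to 53 without any of both-agent replicates 1 and 3, IFNg replicate 2, Pam3CSK4 replicates 1 and 4 or vehicle replicates 1 and 4. With upper-quartile scaling 121 genes differed, 46 higher and 75 lower, against 51 and 37.

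**Figure D4:**
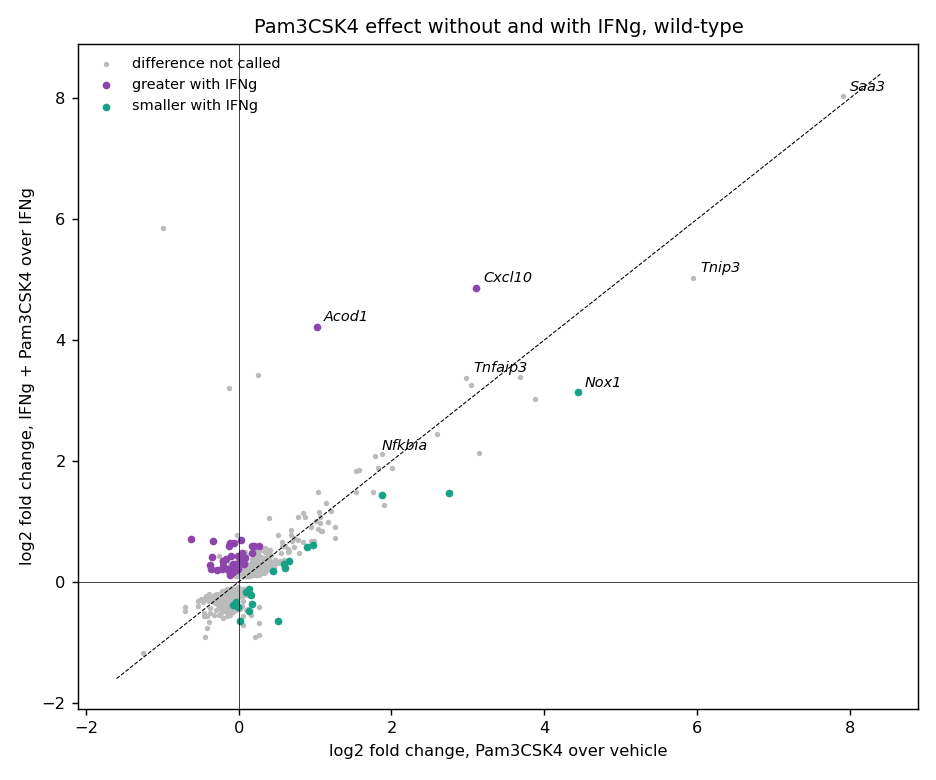
Log2 fold change of Pam3CSK4 with IFNg against that without IFNg for the 916 genes called in the comparison with both agents that averaged at least 1 CPM with vehicle or with Pam3CSK4 alone; the dashed line marks equal effects and colours mark a called difference. Acod1 and Cxcl10 lie above the line, Nox1 lies below it, and Nfkbia and Tnfaip3 lie near it.

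The same addition was made in the mutant line, in libraries that share none with the wild-type comparison, and 2539 genes (17.1%) were called there, 9.33% higher and 7.75% lower. The difference between the lines was called for 1111 genes (7.47%), 600 (4.04%) with a higher log2 fold change in the mutant and 511 (3.44%) with a lower one. This difference subtracts the wild-type comparison above, with the same wild-type libraries. Genes or lists picked for a wild-type rise or fall were therefore more likely to differ here in the opposite direction. With 1 line per genotype, line and genotype cannot be told apart. The lines also differed in the receptor genes before the addition. With IFNg alone Tlr2 averaged 1.37 CPM in wild-type and 4.245 CPM in the mutant, Tlr1 0.0658 and 1.01 CPM, and Tlr6 1.696 and 3.58 CPM. Cd14 went the other way, at 4.104 and 2.67 CPM. With both agents Tlr2 averaged 3.025 and 14.5 CPM and Tlr1 0.0949 and 2.83 CPM. Any part of these levels in the differences below was not tested. Of the 80 wild-type rises of at least 2-fold, 70 were also called higher in the mutant. Structural RNA took 23 ± 4.77% of counts in the mutant libraries with both agents and 21.1 ± 3.89% in those with IFNg (SD, n = 4).

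Many NF-kB feedback genes rose more in the mutant. Of 21 inhibitors and ubiquitin editors 11 had a higher log2 fold change in the mutant and none a lower one. Tnfaip3 went from 0.794 ± 0.1496 to 38.4 ± 2.56 CPM there, a log2 fold change of 5.60 that exceeded the wild-type one by 2.22 (adjusted p = 1.4e-14). Tnip3, Tnip1, Nfkbia and Nfkb1 differed by 2.37, 1.33, 0.91 and 0.52. Ccl3 went from 22.5 ± 1.097 to 221 ± 8.75 CPM in the mutant, a difference of 2.40, and Cxcl10 from 13.5 ± 0.9295 to 847 ± 55.05 CPM, a difference of 1.10. Igsf6, Stx11 and Olr1 differed by 2.25, 1.98 and 1.17.

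Guanylate-binding proteins and immunity-related GTPases rose in the mutant too, with 13 of 19 higher and none lower, but several rose less. Of the 19 members 10 had a lower log2 fold change in the mutant and none a higher one. The list median there was 0.43 beside 1.16 in wild-type. A smaller rise was not always a lower level. Gbp7 rose less in the mutant (difference -0.32) but went from 342 to 429 CPM there, beside 153 to 239 CPM in wild-type. With IFNg alone Gbp2, Gbp3 and Gbp5 averaged 234, 57.4 and 8.06 CPM in the mutant and 58.5, 14.99 and 1.21 CPM in wild-type. Levels of the other members were not compared between lines. Gbp2, Gbp3 and Gbp5 did not pass the test of the difference between lines (adjusted p = 0.263, 0.907 and 0.588), while Gbp4 and Iigp1 had differences of -0.91 and -0.83. Cholesterol genes had a median of 0.05 in the mutant beside -0.22 in wild-type, and 13 of 25 had a higher log2 fold change in the mutant and 1 a lower one. Hmgcs1 stood at 281 ± 14.4 and 316 ± 33.1 CPM in the mutant, a difference between lines of 0.61 (adjusted p = 0.00102), and Msmo1 and Fdft1 differed by 0.73 and 0.45. Cxcr4, a homing receptor gene, fell in both lines and by more in the mutant, a difference of -0.61. Tifab and Banp rose in wild-type, with log2 fold changes of 0.19 and 0.53 there and -0.41 and -0.16 in the mutant, differences of -0.59 and -0.68. In the mutant the fall was called for Tifab, while Banp was not called (adjusted p = 0.143, edgeR).

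**Figure D5:**
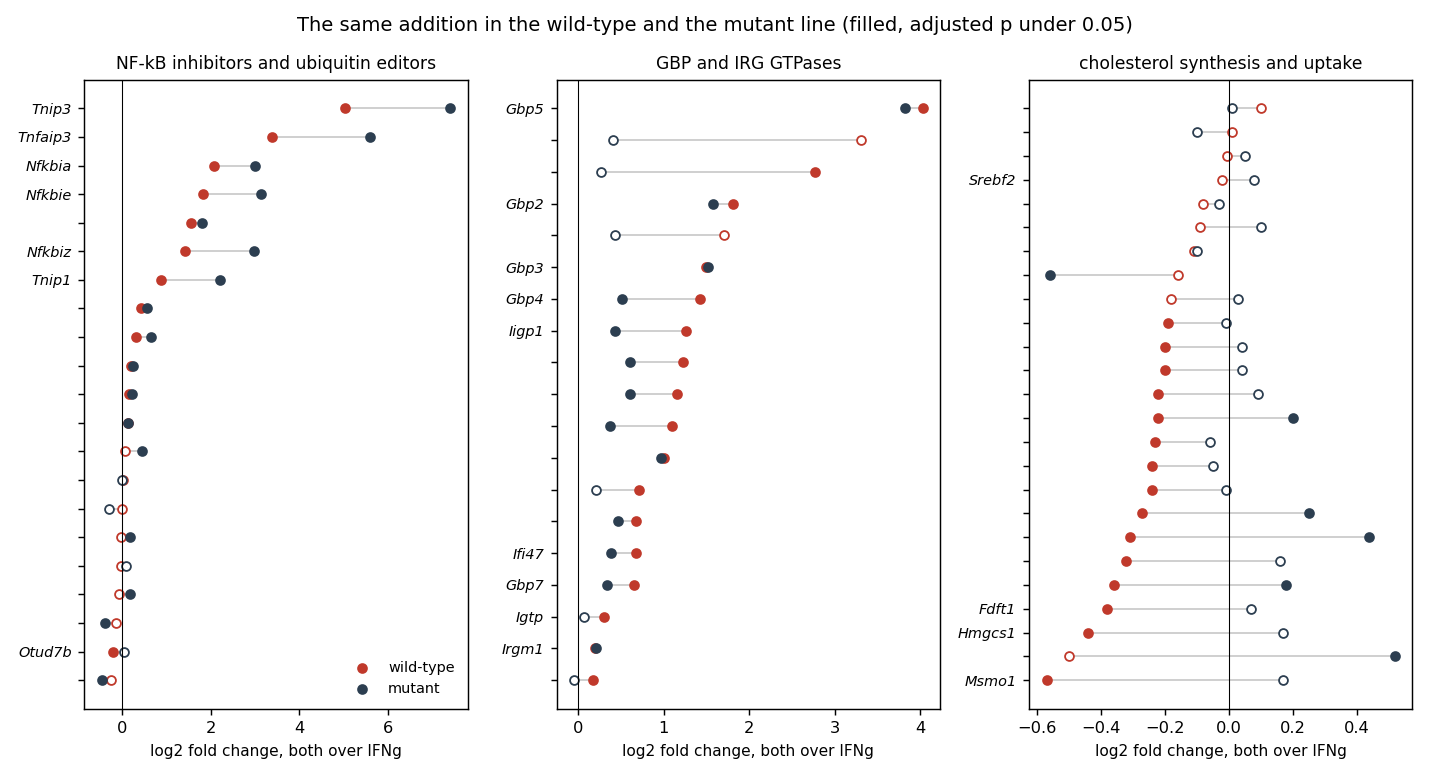
Log2 fold change (both agents over IFNg alone) of each tested member of 3 gene lists in the wild-type line (red) and the mutant line (dark), joined by a line and labelled where the gene is described in the text, with filled points called at an adjusted p under 0.05. Mutant points lie to the right for Tnip3 and Tnfaip3, to the left for Iigp1 and Gbp4, and to the right for most cholesterol genes.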

How the data were processed

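Total RNA libraries were made with a stranded kit after ribosomal RNA reduction, per the labels' protocols. Reads were aligned with STAR 2.5.2b to mm10 and quantified with RSEM 1.3.0, per the submitters' processing notes. Estimated counts per gene, the unit of all tests, were made by the authors with RSEM and deposited (the expected counts of the file headers). The deposited TPM values were not tested. Of the nonzero expected counts 11.07% were not whole, and all were rounded. Gene names came from GENCODE, with 93 of 55487 identifiers unmatched.

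All 32 libraries in 8 groups were fitted together with edgeR 4.0.16 (R 4.3.3; TMM scaling, filterByExpr, robust quasi-likelihood test, residual df 24), which kept 14869 genes and removed 40618. CPM values use the TMM library sizes. Benjamini-Hochberg adjustment ran over all tested genes within each contrast, and an adjusted p under 0.05 counted as called. The effects with and without IFNg, and in the mutant and wild-type lines, were compared as differences of contrasts. DESeq2 1.42.0, other scalings, filters and covariates, a replicate block and leaving out each library were alternatives. Counts were simulated for the main contrast over 14869 genes, with changes placed only in genes averaging at least 1 CPM. The fit called 89.6% of 1.5-fold, 94% of 2-fold and 100% of 4-fold changes, with 5 false calls among 14669 unchanged genes. The simulation held no shift between libraries such as those of Gm42418 or structural RNA. Its smallest fold, 1.5, was larger than the median called rise or fall, so it does not cover most calls. No pair of libraries in a group agreed within sampling noise.

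The members and gene lists were chosen with earlier results of these data known. Named genes were a preset set (Gata2, receptors, Irf1, Irf8, Nfkbia, Tnfaip3), the 15 rises and 15 falls of greatest fold at 5 CPM or more without overlap, up to 3 rises and 3 falls per list at 1 CPM or more, and the genes of smallest p for the differences (8 each way for IFNg, 6 each way for genotype). Other genes given with values were chosen after their values were seen. Promoter sequence came from RefSeq on GRCm38.p6. Single values of a few list members are not reported here.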

Additional observations from a re-analysis of the deposited data

Results flagged for a closer look

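The effect of adding Pam3CSK4 differed with and without IFNg for 88 genes and between the lines for 1111 genes, each by a test of the difference itself. Differences in log2 fold change, with minus without IFNg, were measured for Cxcl10 (1.76), Tnfsf10 (1.01), Acod1 (3.21), Nox1 (-1.30), Gbp7 (0.71), H2-T23 (0.55) and Psmb9 (0.47). The same difference was measured for Zfp36 (0.75), Ifi47 (1.01), Tubb3 (0.67), Psmb8 (0.29), Gpr12 (-0.54), Apobec3 (-0.32), Rassf4 (-0.36) and Fchsd2 (-0.28). Of these, Tnfsf10, Zfp36, Apobec3, Rassf4, Fchsd2 and Nox1 were not called with the Gm42418 level as a covariate. Differences in log2 fold change, mutant minus wild-type, were measured for Nfkbia (0.91), Tnfaip3 (2.22), Tnip3 (2.37), Nfkb1 (0.52), Cxcl10 (1.10), Ccl3 (2.40), Hmgcs1 (0.61) and Msmo1 (0.73). The difference between lines was also measured for Fdft1 (0.45), Tnip1 (1.33), Igsf6 (2.25), Stx11 (1.98), Olr1 (1.17), Cxcr4 (-0.61), Tifab (-0.59), Banp (-0.68), Iigp1 (-0.83) and Gbp4 (-0.91).

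A single library stood apart from the other 3 of its group for Cd40 in both-agent replicate 2 (lowest, 2.125 CPM), Cxcl2 in IFNg replicate 3 (highest, 0.02943 CPM), Hp in IFNg replicate 1 (lowest, 19.6 CPM) and C3 in IFNg replicate 1 (highest, 18.65 CPM). Libraries likewise stood apart for Nos2 in both-agent replicate 1 (highest, 0.086 CPM), Casp4 in IFNg replicate 4 (lowest, 1.261 CPM), Irgm1 in IFNg replicate 3 (highest, 494.1 CPM) and Usp18 in IFNg replicate 2 (lowest, 5.852 CPM). The same was seen for Fos in IFNg replicate 3 (lowest, 1.766 CPM), Atf3 in both-agent replicate 4 (highest, 9.347 CPM), Rgs2 in both-agent replicate 2 (highest, 19.47 CPM) and Bhlhe40 in both-agent replicate 2 (lowest, 3.427 CPM). Further such values were those of Meis1 in IFNg replicate 2 (lowest, 27.19 CPM), Apobec3 in both-agent replicate 4 (highest, 101.4 CPM) and Cxcr4 in IFNg replicate 1 (lowest, 36.1 CPM). These were 15 of 212 groups of 4 examined for 106 genes, and chance alone gives about 1 in 20.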

How the results depend on the processing

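The count of 1012 genes for both agents against IFNg was 848 to 1432 under other scalings, filters, DESeq2, a structural RNA covariate and the 8 libraries alone, 506 with the Gm42418 level as a covariate (chosen after seeing the data, as was leaving out Gm42418 and Lars2), and 577 to 1179 without single libraries. The count of at least 2-fold changes was 88 and ranged from 71 to 107, and from 76 to 93 without single libraries. Pam3CSK4 against vehicle gave 3277, with 2057 from its own libraries alone, 176 with a structural RNA covariate, and 2048 to 4099 without single libraries. The 88 genes that differed with and without IFNg became 501 with DESeq2, 172 without the filter, 154 from the libraries of the contrast alone, 42 with a structural RNA covariate, 24 with the Gm42418 level as a covariate, and 44 to 1156 without single libraries. The 1111 genes that differed between lines became 652 with the Gm42418 level as a covariate and 768 to 1296 without single libraries. The structural RNA share difference of -2.27 points ranged from -3.14 to -1.66, with -3.14 (exact permutation test, p = 0.0286) without IFNg replicate 4. The cause of these changes was not tested. None of the 135 named genes reversed direction past the threshold. Other genes given with values were not followed one by one through these alternatives. The split of the 88 went from 51 higher and 37 lower to 46 and 75 under upper-quartile scaling. With the replicate block the first count was 1042, those for the 2 differences were 88 and 1086, and that for Pam3CSK4 against vehicle was 3202; same-numbered libraries of both agents and IFNg correlated at -0.0743 to 0.0675, so the numbers were not treated as pairing, although single genes such as Hmgcs1 were highest in replicates 2 and 3 of both groups. Genes under about 0.1 CPM rest on few reads in each library.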

Other observations

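Outside the gene lists, Pgk1-rs7, a processed pseudogene of a glycolytic kinase gene, averaged 0.231 CPM with IFNg and 11.4 CPM with both agents. Ntn1, which encodes the guidance protein netrin-1, averaged 0.00531 CPM with IFNg and 0.369 CPM with both agents. Slc39a4, a zinc importer gene, averaged 0.162 and 1.601 CPM, and Hpn, a transmembrane serine protease gene, 0.0562 and 0.473 CPM. These 4 genes were chosen after their values were seen.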
